A study of Saccharomyces cerevisiae with 21 samples.

Results

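The region described here is the 3′ part of the NGD-CGA reporter of budding yeast, from the first nt after its 12 CGA codons to the end of the deposited sequence. It was chosen by position alone: 440 of the 1586 positions of the reporter, nt 1147 to 1586, where nt 1 is the first nt of the start codon. It holds 128 codons of *HIS3* (nt 1147 to 1530), the stop codon (nt 1531 to 1533) and 53 nt after it. Ribosome-protected fragments (RPFs) of 15 monosome libraries of 8 strains were placed on it, in 3 size classes. RPFs of 28 nt (27 to 32 nt) come from ribosomes with an occupied A site and RPFs of 21 nt (20 to 22 nt) from ribosomes with an empty one, and both are placed by the A site. RPFs of 16 nt (15 to 17 nt) come from ribosomes at the 3′ end of a cut mRNA and are placed by that end. Values are in rpm, reads per 1000000 reads of the library.

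The strains were derivatives of BY4741 with the galactose-induced GFP-2A-FLAG-*HIS3* cassette integrated at *ADE2* (YOR128C, chromosome XV of R64, 564476 to 566191), and the labels list no plasmid. All of them lacked *SKI2* (YLR398C), which encodes a helicase that feeds mRNA to the exosome, so there was no library with Ski2 present. The other genotypes were *hel2Δ slh1Δ dom34Δ ski2Δ*, *hel2Δ dom34Δ ski2Δ*, *cue2Δ slh1Δ dom34Δ ski2Δ*, *cue2Δ dom34Δ ski2Δ*, *slh1Δ dom34Δ ski2Δ*, *dom34Δ ski2Δ* and *slh1Δ ski2Δ*, with 2 libraries each, and *ski2Δ* alone had 1 library. The libraries came in 2 deposited sets, with 1 library of each strain per set and *ski2Δ* in the first set only. The labels call the molecule polyA RNA in the first set and total RNA in the second. Nothing in the labels says that the libraries of a strain came from separate cultures, so the p-values measure the spread between these libraries, which may be technical. Tests over all 15 libraries take the 2 libraries of a strain as independent, so they may overstate the number of independent units. The traces hold reads on the reporter only, and the deletions could not be checked from reads on the deleted genes.

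CGA is decoded slowly in yeast, and ribosomes that reach a run of CGA codons stall and collide with those behind them. Hel2 is the E3 ligase that marks collided ribosomes with ubiquitin, and Slh1 is the helicase that then takes them apart. Cue2 is the endonuclease that cuts the mRNA at collisions. Dom34, with its partner Hbs1, rescues ribosomes whose A site is empty at the end of a cut mRNA. RPFs past the tract come from ribosomes that translated the CGA codons to the end, and their codon position shows in which reading frame they went on.

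Depth was 1261876 to 15416759 reads per library (median 10636068), so that 3 reads, taken here as the floor, came to 0.195 to 2.38 rpm. The shallowest libraries, *cue2Δ slh1Δ dom34Δ ski2Δ* replicate 3 and *hel2Δ slh1Δ dom34Δ ski2Δ* replicate 1, stood apart in their reading frame as well, as given below. Labels clashed for 2 libraries of the second set. The *cue2Δ slh1Δ dom34Δ ski2Δ* columns of that set are named replicate 3, the number of the library in the first set, while the sample of the second set is titled replicate 4. They were used as a second library of the strain with no number, and they hold 21 and 28 nt values only. The label of *slh1Δ dom34Δ ski2Δ* replicate 2 gives fragments of 40 to 80 nt, the size of disome footprints, but its title and columns are those of a monosome library, and it was used as one. Values without it are given beside the calls that change without it.

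The downstream codons encode residues 93 to 220 of His3, the imidazoleglycerol-phosphate dehydratase of histidine synthesis (*HIS3*, YOR202W, chromosome XV of R64, 721946 to 722608, plus strand). All 128 residues matched the native protein, while the sequence through the stop codon matched native *HIS3* at 306 of 387 nt (79.1%) and at 62 of 129 codons (48.1%). The first 70 nt after the tract (nt 1147 to 1216) are shown first with the shifted stop codons in capitals, which are the first stop codons that a ribosome meets in the other frames. They are then shown with the codons of highest occupancy in capitals. The surroundings of the *HIS3* stop codon (nt 1498 to 1539) follow, with the stop codon in capitals.
Shifted stop codons: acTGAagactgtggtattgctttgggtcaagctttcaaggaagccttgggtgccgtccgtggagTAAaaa
Codons of highest occupancy: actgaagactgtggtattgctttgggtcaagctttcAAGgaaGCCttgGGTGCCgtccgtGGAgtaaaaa
*HIS3* stop codon: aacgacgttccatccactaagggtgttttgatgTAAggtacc

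In the frame shifted by 1 nt forward (+1), the first stop is the TAA at nt 1211 to 1213, 65 nt after the tract. In the frame shifted by 1 nt back (-1), it is the TGA at nt 1149 to 1151, 3 nt after the tract. Reads of 28 nt occur once in R64 and the reporter at every A-site position of *HIS3* after the tract and at the stop codon, and reads of 21 nt at 378 of 384. Reads of 16 nt, placed by the 3′ end, occur once at 355 of the 384 positions of *HIS3* after the tract. The last 46 nt of the deposited sequence (nt 1541 to 1586) are the end of *ADH1* (YOL086C, minus strand), 33 nt of coding sequence and 13 nt after it, at chromosome XV 159535 to 159580 of R64. Reads there also occur in the genome, so 28 nt reads could be placed singly only up to nt 1556 and 21 nt reads up to nt 1557.

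Read-through was measured as the 21 plus 28 nt RPFs per nt in *HIS3* after the tract, as a percent of those per nt at nt 1 to 810, which ends more than 300 nt ahead of the tract. The paper reports that loss of *SKI2* stabilises the 5′ fragments of cut reporter mRNA. Ribosomes on such fragments can be counted upstream but not after the tract. The ratio is therefore not the share of ribosomes that pass the tract, and how strains differ in cut mRNA upstream was not tested. Read-through was between 17.8 and 43.5% in the 10 libraries of the 5 strains without Slh1 or Hel2. The 5 libraries with both proteins gave 0.936 to 5.81%, and the ranges did not overlap. Read-through was 32.4 and 34.2% in *hel2Δ slh1Δ dom34Δ ski2Δ*, and 43.5 and 36.2% in *hel2Δ dom34Δ ski2Δ*. It was 36.0 and 35.2% in *cue2Δ slh1Δ dom34Δ ski2Δ*, and 5.81 and 3.83% in *cue2Δ dom34Δ ski2Δ*. Without Slh1, the *cue2Δ* libraries were all higher, and the *hel2Δ* libraries slightly lower.

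Read-through was 28.5 and 26.8% in *slh1Δ dom34Δ ski2Δ*, and 5.08 and 4.27% in *dom34Δ ski2Δ*. It was 17.8 and 18.3% in *slh1Δ ski2Δ*, and 0.936% in *ski2Δ*. In the order of the strain means, the libraries of neighbours overlapped only for *cue2Δ dom34Δ ski2Δ* (4.82% ± 1.41, SD, n = 2) and *dom34Δ ski2Δ* (4.68% ± 0.574, SD, n = 2). Several other neighbours lay close together: the lower *hel2Δ dom34Δ ski2Δ* library was at 36.2% and the higher *cue2Δ slh1Δ dom34Δ ski2Δ* library at 36.0%. The *ski2Δ* value rests on 199 reads after the tract, and the other libraries had 426 to 6773.

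**Figure D1:**
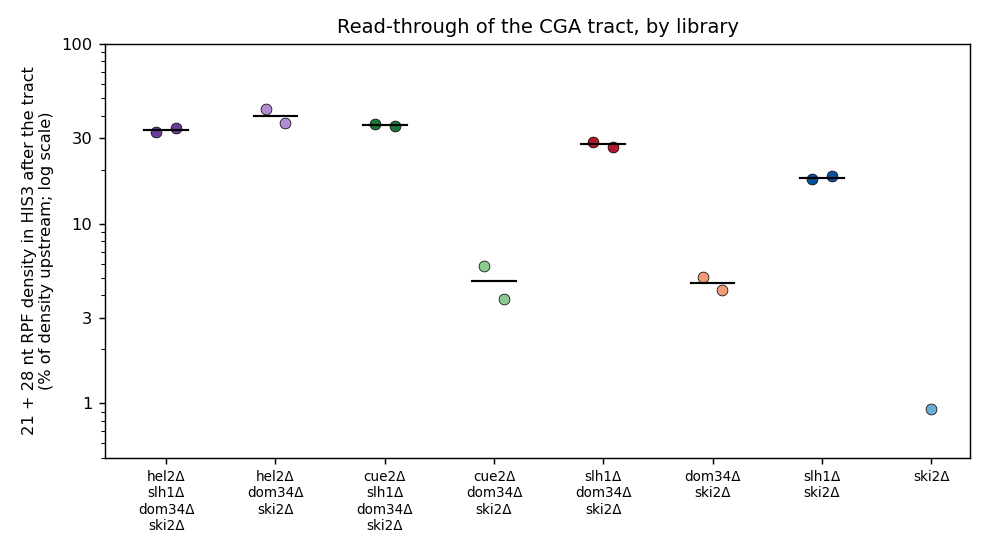
Read-through by library: density of 21 plus 28 nt RPFs in *HIS3* after the tract as a percent of the density at nt 1 to 810 (log axis). Each point is 1 library and each line the mean of 2; the 10 libraries without Slh1 or Hel2 lie at 17.8 to 43.5%, above the 5 others at 0.936 to 5.81%.

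Loss of *SLH1* was compared in 4 backgrounds on the log2 scale of this density ratio, with libraries permuted within each background. The mean difference was 2.37, a 5.19-fold rise (two-sided exact permutation test, p = 0.00926, adjusted p = 0.0463 over the 10 such tests, 648 arrangements). The difference was positive in 3 of the 4 backgrounds. It was 4.27 in *ski2Δ*, 2.57 in *dom34Δ ski2Δ* (2.49 within the first set and 2.65 within the second) and 2.91 in *cue2Δ dom34Δ ski2Δ* (2.63 and 3.20). In *hel2Δ dom34Δ ski2Δ* it was -0.25 (-0.42 and -0.08). That last value was 0.48 when the RPFs were not divided by the upstream RPFs, so its direction depends on the scaling: the upstream RPFs were 3060 ± 703 rpm in *hel2Δ slh1Δ dom34Δ ski2Δ* and 1821 ± 263 rpm in *hel2Δ dom34Δ ski2Δ* (SD, n = 2 each). Leaving out 1 library at a time gave adjusted p-values of 0.0463 to 0.139, with a mean difference of 1.74 without the single *ski2Δ* library and of 2.39 (exact permutation, adjusted p = 0.0926) without *slh1Δ dom34Δ ski2Δ* replicate 2. With the deposited set as a block the mean difference was 2.10 and no longer passed the test (exact sign-flip permutation over 7 differences within sets, p = 0.0625, adjusted p = 0.156).

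Loss of *HEL2* was compared in 2 backgrounds. The difference in read-through was 3.09 (8.52-fold) in *dom34Δ ski2Δ*, with 3.10 and 3.09 within the sets, and 0.27 (1.21-fold) in *slh1Δ dom34Δ ski2Δ*, with no overlap of libraries in either. The mean over both was 1.68 (exact permutation test, p = 0.0556, adjusted p = 0.139), and 0.0556 is the smallest p that 36 arrangements allow. For loss of *CUE2* the difference was 0.02 in *dom34Δ ski2Δ*, where the libraries overlapped, and 0.37 (1.29-fold) in *slh1Δ dom34Δ ski2Δ*, where they did not. Its mean of 0.19 did not pass the test (exact permutation, p = 0.333, adjusted p = 0.556). Loss of *DOM34* gave 2.31 (4.97-fold) in *ski2Δ* and 0.61 (1.53-fold) in *slh1Δ ski2Δ*, with a mean of 1.46 (exact permutation, p = 0.0556, adjusted p = 0.139, the smallest p of 18 arrangements). With 2 libraries against 2 or against 1, a single pair of strains cannot give an exact p below 0.333.

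The rise was next followed along the region in windows of 24 nt counted from the first nt after the tract, as log2(rpm + 0.1) relative to the upstream RPFs, with limma over all windows of the reporter. Of the 65 windows 64 were tested, 17 of them in the region: 16 windows of *HIS3* and the stop codon. The window after the stop codon averaged 0.446 rpm and fell under the minimum of 0.5 rpm. In *slh1Δ dom34Δ ski2Δ* against *dom34Δ ski2Δ*, all 17 were higher at an adjusted p under 0.05 in limma, where 64.1% of all windows tested were called. Here and below, that share counts calls in either direction and includes the windows of the region. Outside the region, 24 of 47 windows were called. The median log2 difference was 2.59 over the 17 windows and 0.62 over all windows tested. All windows tested include the 17 and the windows of the upstream stretch used as denominator. In that stretch, dividing by its own RPFs keeps differences small on average. The median, the share called and the counts outside the region are therefore no independent background, here and in the comparisons below. The largest difference was 265 nt after the tract (nt 1411 to 1434), at 12.2 rpm in *slh1Δ dom34Δ ski2Δ* and 1.86 rpm in *dom34Δ ski2Δ* (log2 difference 3.09, SE 0.33, limma adjusted p = 5.59e-09).

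In *cue2Δ slh1Δ dom34Δ ski2Δ* against *cue2Δ dom34Δ ski2Δ*, all 17 windows were also higher (67.2% of all windows tested were called, and 26 of the 47 outside the region), with a median of 2.93 against 0.83 over all windows. The last window before the stop codon (nt 1507 to 1530) differed most, with 24.5 rpm in *cue2Δ slh1Δ dom34Δ ski2Δ* and 2.14 rpm in *cue2Δ dom34Δ ski2Δ* (3.84, SE 0.35, limma adjusted p = 4.54e-10). In *hel2Δ dom34Δ ski2Δ* against *dom34Δ ski2Δ*, all 17 were higher (43.8% of all windows tested were called, and 11 of the 47 outside the region), with a median of 3.15 against 0.27. The window at nt 1411 to 1434 again differed most, at 18.9 rpm in *hel2Δ dom34Δ ski2Δ* and 1.86 rpm in *dom34Δ ski2Δ* (3.74, SE 0.33, limma adjusted p = 1.79e-10). Both *hel2Δ dom34Δ ski2Δ* and *slh1Δ dom34Δ ski2Δ* are set against the same *dom34Δ ski2Δ* libraries.

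In *slh1Δ ski2Δ* against *ski2Δ*, all 17 windows were higher as well (43.8% of all windows tested were called), with a median of 4.31 against 0.62 over all windows. The *ski2Δ* group is 1 library, with 1 to 53 reads per 24 nt window, and 12 of its 16 windows held 3 reads or more. The largest fitted difference, at nt 1411 to 1434, had 9.58 rpm in *slh1Δ ski2Δ* and 0.0727 rpm, 1 read, in *ski2Δ*. Its ratio to the upstream reads was 196 times that of *ski2Δ*, with an exact counting interval of 34.7 to 7767.

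No window of the region was called where a second of the 2 genes was deleted in a strain that already lacked the other. In *hel2Δ slh1Δ dom34Δ ski2Δ* against *hel2Δ dom34Δ ski2Δ*, 0 of 17 were called in limma (0 at an unadjusted p under 0.05, and 0 by edgeR), where 3.12% of all windows tested were called, and the median was -0.28 against -0.13. In *hel2Δ slh1Δ dom34Δ ski2Δ* against *slh1Δ dom34Δ ski2Δ*, 0 of 17 were called (1 at an unadjusted p under 0.05, and 1 by edgeR), where 10.9% were called, and the median was 0.25 against 0.03. Without the upstream RPFs as denominator the second comparison had 15 windows called higher, and the first had 1.

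The difference between backgrounds was tested as an interaction term of the same limma fit, a test added after the values were seen. The rise with loss of *SLH1* was smaller in *hel2Δ dom34Δ ski2Δ* than in *dom34Δ ski2Δ* in all 17 windows (46.9% of all windows tested were called), with a median difference of -2.86 on the log2 scale. It was also smaller in *dom34Δ ski2Δ* than in *ski2Δ* in 13 of 17 windows (26.6% of all windows tested were called), with a median of -1.79. That comparison rests on the single *ski2Δ* library, with 1 to 53 reads per 24 nt window, which is assumed to vary like the other strains. With 1 rpm in place of 0.1 rpm added to each value, 1 window was called in this second comparison. By the same arithmetic, these are the differences in the effect of *HEL2* loss with and without Slh1, and of *DOM34* loss with and without Slh1.

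**Figure D2:**
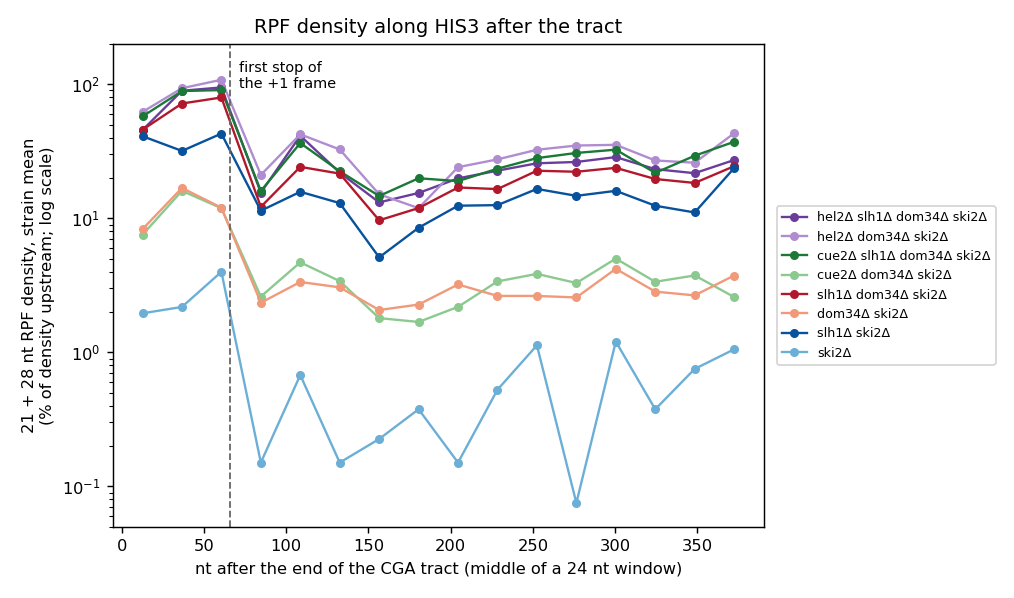
Density of 21 plus 28 nt RPFs in 24 nt windows after the tract, as a percent of the density at nt 1 to 810 (log axis), mean of the libraries of each strain. In each strain the density is lower in the fourth window than in the third, which holds the first stop codon of the +1 frame (dashed line); in *slh1Δ dom34Δ ski2Δ* it is 79.8% in the third and 12.2% in the fourth, and in *ski2Δ* 3.99% and 0.151%.

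RPFs were not spread evenly over *HIS3* after the tract. The 67 nt from the tract through the TAA of the +1 frame (nt 1147 to 1213) held 2.88 to 5.5 times the density of the 317 nt after it (nt 1214 to 1530), higher in 15 of 15 libraries. The mean log2 ratio was 1.86 ± 0.265 (SD, n = 15; two-sided exact sign-flip permutation test over libraries, p = 6.1e-05, the smallest it can give). The test took the libraries of a strain as independent. By strain, the mean ratio ran from 2.98 in *slh1Δ ski2Δ* to 5.5 in the single *ski2Δ* library. The boundary at the TAA was set after the profile had been seen. The ratio was between 2.88 and 3.71 in the 10 libraries without Slh1 or Hel2, and between 3.76 and 5.5 in the 5 libraries with both, a difference that was not tested.

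The level on each side differed between strains as total read-through did. Before the TAA, the density was 77.9 and 83.7% of that upstream in *hel2Δ slh1Δ dom34Δ ski2Δ*, and 104 and 78.5% in *hel2Δ dom34Δ ski2Δ*. It was 70.7 and 67.5% in *slh1Δ dom34Δ ski2Δ*, and 14.2 and 11.9% in *dom34Δ ski2Δ*. It was 38.9 and 41.2% in *slh1Δ ski2Δ*, and 2.89% in *ski2Δ*. The highest value, 104%, was that of 1 of the 2 *hel2Δ dom34Δ ski2Δ* libraries. After the TAA, it was 22.8 and 23.8% in *hel2Δ slh1Δ dom34Δ ski2Δ*, and 30.8 and 27.3% in *hel2Δ dom34Δ ski2Δ*. It was 19.5 and 18.2% in *slh1Δ dom34Δ ski2Δ*, and 3.16 and 2.66% in *dom34Δ ski2Δ*. It was 13.3 and 13.5% in *slh1Δ ski2Δ*, and 0.524% in *ski2Δ*. Each strain had less here than before the TAA. The *cue2Δ* strains had 89.6 and 76.9% before the TAA and 24.6 and 26.4% after it in *cue2Δ slh1Δ dom34Δ ski2Δ*, and 14.8 and 10.2% before it and 3.93 and 2.47% after it in *cue2Δ dom34Δ ski2Δ*.

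The 5 codons with the highest share of RPFs, averaged over strains, all lay before that TAA. They were the Ala codon GCC at nt 1189 to 1191 (5.36% of the RPFs of *HIS3* after the tract, where an even spread over 128 codons would give 0.781%), the Gly codon GGA at nt 1207 to 1209 (4.05%), the Lys codon AAG at nt 1183 to 1185 (3.99%), the Ala codon GCC at nt 1198 to 1200 (3.95%) and the Gly codon GGT at nt 1195 to 1197 (3.78%). Together they held 21.1%, and each was above the mean codon in 15 of 15 libraries. They were picked by their mean in these same libraries, so that count is not an independent check. Their size classes differed: 21 nt RPFs were 53.2% of the reads at GCC 1198, over all libraries, and 9.32% at the same codon at GCC 1189. GCC 1189 ranged from 1.40 to 10.7% between libraries, and was 8.19 and 5.40% in *dom34Δ ski2Δ* and 2.38 and 1.40% in *slh1Δ ski2Δ*.

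Reads also lay on the 3 nt of each shifted stop codon. The 3 nt of the TAA at 1211 to 1213 held 0.643 to 5.11 times the mean codon of all *HIS3* after the tract (median 2.79). This was above the mean codon in 14 of 15 libraries, the exception being *ski2Δ* with 1 read. The TAA lies in the 67 nt that were 2.88 to 5.5 times as dense as the rest, so this does not show a peak over the codons around it. The middle nt of the TAA was above both others in 11 libraries and tied for the highest in 2. At the *HIS3* stop codon, too, most reads were at the middle nt. The 3 nt of the TGA at 1149 to 1151 held 1.97 to 5.79 times the mean codon, and there the middle nt was the highest in 0 of 15 libraries.

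The reading frame was read from the 28 nt RPFs, most of which fall on codon position 2: 53.7 to 74.6% upstream (median 71.6%) and 48.9 to 73.8% in *HIS3* after the tract (median 65.3%). The share at position 2 was lower after the tract by 5.09 ± 3.58 percentage points (SD, n = 15), in 14 of 15 libraries (two-sided exact sign-flip permutation test, p = 0.000122). The exception was *slh1Δ ski2Δ* replicate 1, with 0.22 points more. Here, too, the libraries of a strain were taken as independent. The fall was 7.33 ± 0.777 points in *hel2Δ slh1Δ dom34Δ ski2Δ*, 7.49 ± 4.4 in *hel2Δ dom34Δ ski2Δ*, 3.14 ± 3.75 in *cue2Δ slh1Δ dom34Δ ski2Δ* and 3.40 ± 0.676 in *cue2Δ dom34Δ ski2Δ* (SD, n = 2 each). It was 6.98 ± 1.35 in *slh1Δ dom34Δ ski2Δ*, 2.57 ± 0.979 in *dom34Δ ski2Δ*, 1.12 ± 1.90 in *slh1Δ ski2Δ* and 12.3 in the *ski2Δ* library. Between strains this did not pass the test: with loss of *SLH1* the share moved by 1.80 points (exact permutation, adjusted p = 0.754), with a sign that turned under other settings, and with loss of *HEL2* by -2.64 points (adjusted p = 0.444).

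The codon position differed most before the TAA of the +1 frame. Ribosomes that move forward by 1 nt have their 28 nt RPFs at codon position 3. The share at position 3 was 17.5 to 36.8% between the tract and the end of the TAA (median 27.7%), 10 to 32% after it (median 14.6%) and 13.0 to 33.1% upstream (median 15.3%). It was higher before the TAA than after it in 15 of 15 libraries, by 10.9 ± 6.32 points (SD, n = 15; two-sided exact sign-flip permutation test, p = 6.1e-05, the smallest it can give). This test, too, was chosen after the data were seen, and it took the libraries of a strain as independent. The median after the TAA was thus near that upstream, and the median before it was higher than both.

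By strain, position 3 held 30.8 and 32.3% before the TAA and 29.2 and 11.4% after it in *hel2Δ slh1Δ dom34Δ ski2Δ*, and 26.8 and 33.7% before and 13.5 and 14.6% after in *hel2Δ dom34Δ ski2Δ*. It held 27.7 and 33.8% before and 16.5 and 12.4% after in *slh1Δ dom34Δ ski2Δ*, and 22.1 and 25.2% before and 20.8 and 12.2% after in *dom34Δ ski2Δ*. In *cue2Δ slh1Δ dom34Δ ski2Δ* it held 36.8 and 28.7% before and 32 and 15.2% after. In *slh1Δ ski2Δ* it held 17.5 and 20.8% before and 10 and 11.7% after, and in *ski2Δ* 31.9% before and 19.7% after, on 69 and 61 reads. The lowest shares before the TAA were those of the *slh1Δ ski2Δ* and *cue2Δ dom34Δ ski2Δ* libraries, the second with 20.8 and 20.9% before and 12 and 15.6% after. The 2 shallowest libraries already had 33.1 and 30.2% at position 3 upstream, and their shares were 4.84 and 1.67 points higher before the TAA than after it. In the other 13 libraries the share upstream was 13.0 to 17.1%, and that before the TAA 17.5 to 33.8%.

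The 21 nt RPFs gave another pattern. Upstream they fell on position 2 (median 53.1%) and position 3 (median 35.1%). Before the TAA, position 1 gained 16.5 ± 8.95 points over the stretch after it, in 14 of 15 libraries (exact sign-flip permutation, p = 0.000122, adjusted p = 0.000244 over 6 such tests), while position 2 fell by 10.7 ± 8.50 points (exact permutation, adjusted p = 0.00119) and position 3 fell by 5.85 ± 7.55 points (exact permutation, adjusted p = 0.0063). These tests also took the libraries of a strain as independent. Position 2 was thus depleted before the TAA in both size classes, and the position that gained was 3 for 28 nt RPFs and 1 for 21 nt RPFs. The share of 21 nt RPFs among both classes was 3.19 ± 5.86 points higher after the tract than upstream, in 10 of 15 libraries (exact sign-flip permutation, p = 0.0557).

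**Figure D3:**
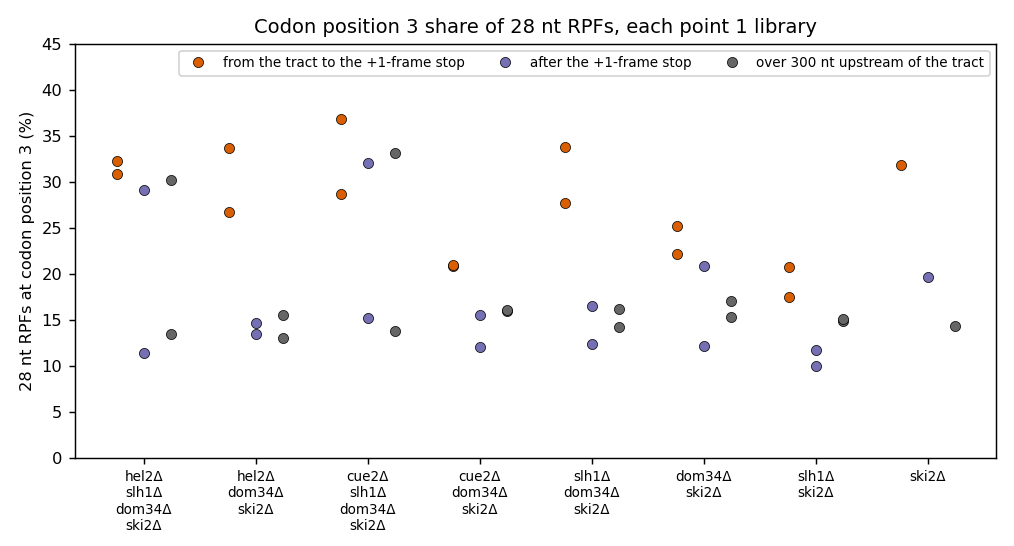
Share of 28 nt RPFs at codon position 3, 1 point per library: from the tract through the TAA of the +1 frame, after it up to the stop codon, and at nt 1 to 810. Shares before the TAA are 17.5 to 36.8% and above those after it in each library; the 2 libraries near 30% in all stretches are the shallowest.

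The stop codon of *HIS3* was occupied above the mean codon in every library. It held 1.46 to 3.37 times the 21 plus 28 nt RPFs of the mean codon of *HIS3* after the tract (median 2.70), and 2.05 to 4.98 times those of its last 192 nt (nt 1339 to 1530; median 3.48). Of its 705 reads in all libraries, 40 had the A site at the first nt of the TAA, 441 at the second and 224 at the third. In rpm, the stop codon held 6.92 and 14.1 in *hel2Δ slh1Δ dom34Δ ski2Δ*, and 8.79 and 6.89 in *hel2Δ dom34Δ ski2Δ*. It held 6.34 and 8.42 rpm in *cue2Δ slh1Δ dom34Δ ski2Δ*, and 0.843 and 1.17 rpm in *cue2Δ dom34Δ ski2Δ*. The 10 libraries without Slh1 or Hel2 had 2.89 to 14.1 rpm and the 5 with both 0.218 to 1.57 rpm, with no overlap.

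The remaining values were 6.09 and 2.89 rpm in *slh1Δ dom34Δ ski2Δ* and 1.57 and 0.989 rpm in *dom34Δ ski2Δ*, with 4.23 and 3.97 rpm in *slh1Δ ski2Δ* and 0.218 rpm, 3 reads, in *ski2Δ*. Relative to the mean codon, these libraries overlapped. The ratio was 2.68 ± 0.615 in *hel2Δ slh1Δ dom34Δ ski2Δ*, 2.93 ± 0.299 in *hel2Δ dom34Δ ski2Δ*, 2.51 ± 0.443 in *cue2Δ slh1Δ dom34Δ ski2Δ*, 1.97 ± 0.522 in *cue2Δ dom34Δ ski2Δ*, 2.41 ± 1.35 in *slh1Δ dom34Δ ski2Δ*, 3.01 ± 0.434 in *dom34Δ ski2Δ*, 2.83 ± 0.520 in *slh1Δ ski2Δ* (SD, n = 2 each) and 1.93 in *ski2Δ*. Loss of *SLH1* changed this log2 ratio by 0.08 (exact permutation, p = 0.728, adjusted p = 0.833) with values of -0.43 to 0.54 over the backgrounds, and loss of *HEL2* by 0.11 (p = 0.833, adjusted p = 0.833). Neither passed the test, which does not show that the strains have equal occupancy.

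The share of 21 nt RPFs at the stop codon varied widely. In the first set, 21 nt RPFs were 13.6 to 78.9% of the reads at the stop codon (median 60.9%), and in the second 13.5 to 43.3% (median 27.3%), while in *HIS3* after the tract the sets were at 19.1 to 34.7% and 24.9 to 34.3%. Of the 7 strains with a library in both sets, 5 had the higher share in the first set, and *hel2Δ slh1Δ dom34Δ ski2Δ* (13.6% in the first, 27.3% in the second) and *cue2Δ slh1Δ dom34Δ ski2Δ* (37.5 and 43.3%) in the second. The mean difference of 23.7 ± 28.3 points (SD, n = 7), tested after the values were seen, did not pass (exact sign-flip permutation, p = 0.109). In *slh1Δ ski2Δ* the share was 62.2% in the first set (95% Wilson interval 47.6 to 74.9%) and 13.5% in the second (5.91 to 28%). Counting error alone is covered by these intervals and by the 3-read floor.

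**Figure D4:**
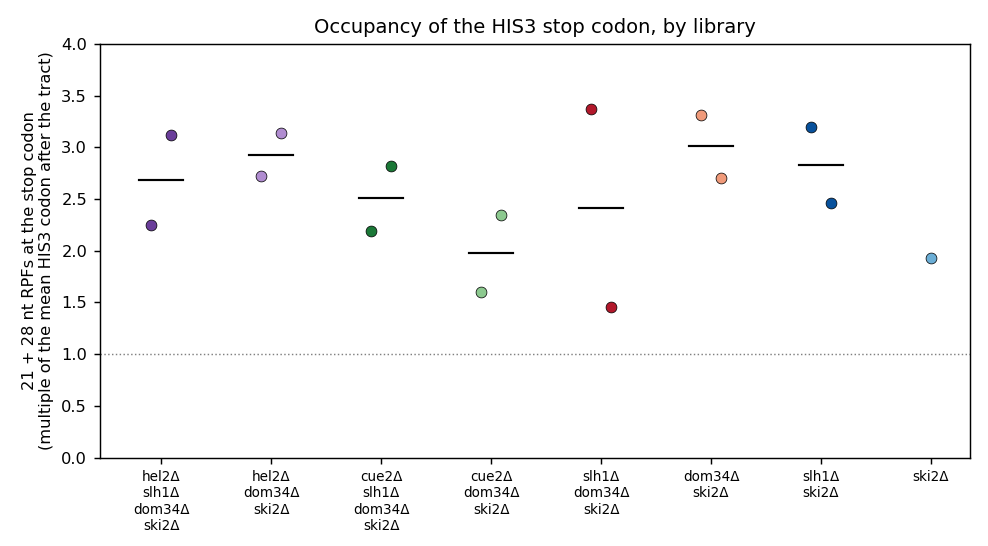
RPFs of 21 plus 28 nt at the *HIS3* stop codon, as a multiple of the mean codon of *HIS3* after the tract; each point is 1 library and each line the mean of 2. All 15 libraries lie above 1 (dotted line), between 1.46 and 3.37, and strains with and without Slh1 or Hel2 overlap.

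Past the stop codon, 59 of the 33417 reads of the region were found in all libraries together (0.177%, 95% Wilson interval 0.137 to 0.228%), and 20 of them lay on the first 3 nt. By library the share was 0 to 0.980%, from 0 to 8 reads, and 2 libraries had none: *cue2Δ dom34Δ ski2Δ* replicate 2 and *dom34Δ ski2Δ* replicate 2. The share was 0.235 and 0.0720% in *hel2Δ slh1Δ dom34Δ ski2Δ*, 0.105 and 0.231% in *hel2Δ dom34Δ ski2Δ* and 0.210 and 0.191% in *cue2Δ slh1Δ dom34Δ ski2Δ*, against 0.980% in *ski2Δ* (2 of 204 reads, interval 0.269 to 3.50%). At positions that are read singly the range was again 0 to 0.980%. No comparison between strains was made on so few reads.

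The 16 nt RPFs, which mark cut mRNA, were counted from the tract through the stop codon. They were 19.1 to 40.9 rpm in the 11 libraries without Dom34 (median 25.5) and 0.0727 to 10.5 rpm in the 3 with it, with no overlap. They were 40.9 and 40.4 rpm in *hel2Δ slh1Δ dom34Δ ski2Δ*, and 27.5 and 23.9 rpm in *hel2Δ dom34Δ ski2Δ*. They were 25.4 rpm in the 1 library of *cue2Δ slh1Δ dom34Δ ski2Δ* (32 reads), and 22.9 and 25.5 rpm in *cue2Δ dom34Δ ski2Δ*. They were 35.3 and 32.9 rpm in *slh1Δ dom34Δ ski2Δ*, and 19.1 and 19.2 rpm in *dom34Δ ski2Δ*. The *cue2Δ dom34Δ ski2Δ* libraries both lay above those of *dom34Δ ski2Δ*. In *slh1Δ ski2Δ* they were 10.5 and 5.04 rpm, and in *ski2Δ* 0.0727 rpm, a single read.

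With loss of *SLH1* the mean of the 16 nt RPFs was higher in 4 of 4 backgrounds, by 1.74 on the log2(rpm + 0.1) scale on average (exact permutation, p = 0.00617, adjusted p = 0.0463, 324 arrangements). The difference was 5.42 in *ski2Δ*, 0.83 in *dom34Δ ski2Δ*, 0.07 in *cue2Δ dom34Δ ski2Δ*, where the libraries overlapped, and 0.66 in *hel2Δ dom34Δ ski2Δ*. Per 100 RPFs of 21 and 28 nt in the same stretch the mean turned to -0.47 (exact permutation, p = 0.478, adjusted p = 0.754), and without the *ski2Δ* library the mean in rpm was 0.52 (exact permutation, adjusted p = 0.139). Without *slh1Δ dom34Δ ski2Δ* replicate 2 it was 1.76 (exact permutation, adjusted p = 0.0617). With the deposited set as a block it was 1.51, higher in 6 of 6 differences within sets, and no longer passed (exact sign-flip permutation, p = 0.0312, the smallest it can give, adjusted p = 0.139). Scaled in this way to the 21 and 28 nt RPFs, the 16 nt RPFs were 13.8 ± 1.44 per 100 in *slh1Δ dom34Δ ski2Δ* and 35.5 ± 6.73 in *dom34Δ ski2Δ* (SD, n = 2 each). They were 8.52 ± 2.38 in *hel2Δ slh1Δ dom34Δ ski2Δ*, 7.41 ± 1.26 in *hel2Δ dom34Δ ski2Δ* and 36.4 ± 3.88 in *cue2Δ dom34Δ ski2Δ* (SD, n = 2 each), with 6.74 in the 1 library of *cue2Δ slh1Δ dom34Δ ski2Δ*. They were 4.23 ± 2.59 in *slh1Δ ski2Δ* (SD, n = 2) and 0.495, from 1 read, in *ski2Δ*. The log2 differences of this ratio with loss of *SLH1*, like their mean of -0.47, were taken with 0.1 rpm added to the 16 nt RPFs. They ran from -2.43 in *cue2Δ dom34Δ ski2Δ* and -1.35 in *dom34Δ ski2Δ* to 0.18 in *hel2Δ dom34Δ ski2Δ* and 1.72 in *ski2Δ*. The added 0.1 rpm is more than the 0.0727 rpm of the single *ski2Δ* read, so the value in *ski2Δ* and the mean depend on it.

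Loss of *CUE2*, the gene of the endonuclease, changed the 16 nt RPFs downstream of the tract by 0.33 in *dom34Δ ski2Δ* and by -0.42 in *slh1Δ dom34Δ ski2Δ*. The mean of -0.05 did not pass the test (exact permutation, p = 0.833, adjusted p = 0.833). Loss of *DOM34*, compared after the values had been seen, gave 6.80 in *ski2Δ* and 2.21 in *slh1Δ ski2Δ*, 4.51 on average (exact permutation, p = 0.0556, the smallest that 18 arrangements allow). Against the single read of *ski2Δ*, the reads of *dom34Δ ski2Δ* were 264 times as many in rpm (exact counting interval 47.0 to 10437), and those of *slh1Δ ski2Δ* 110 times (19.4 to 4359).

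**Figure D5:**
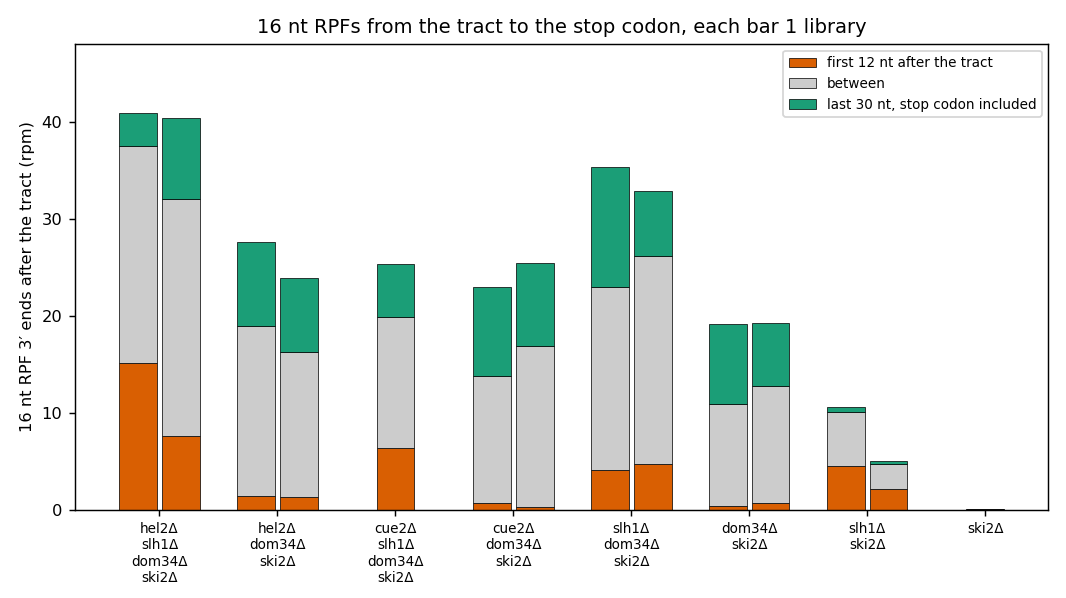
16 nt RPFs from the tract through the stop codon in rpm, 1 bar per library, split into 3′ ends in the first 12 nt after the tract, in the last 30 nt with the stop codon, and between. The last 30 nt hold 3.46 to 12.3 rpm in the 11 libraries without Dom34 and at most 0.470 rpm in the 3 with it; the first 12 nt hold 2.15 to 15.1 rpm in the 7 libraries without Slh1 and at most 1.40 rpm in the 7 with it.

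The 16 nt ends fell into places that went with different genes. The positions of the highest mean rpm over strains were nt 1148 and 1149, just after the tract, and nt 1504, 1528 and 1532, at the end of the reading frame. The 16 nt that precede and include each 3′ end are shown with the last base in capitals, to place the ends relative to the tract and to the stop codon.
End at nt 1148: gacgacgacgacgaaC
End at nt 1149: acgacgacgacgaacT
End at nt 1504: aacggtaccaacgacG
End at nt 1528: actaagggtgttttgA
End at nt 1532: agggtgttttgatgtA

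Ends in the first 12 nt after the tract were more frequent in the libraries without Slh1. They came to 15.1 and 7.58 rpm in *hel2Δ slh1Δ dom34Δ ski2Δ*, and 1.40 and 1.33 rpm in *hel2Δ dom34Δ ski2Δ*. They came to 4.04 and 4.74 rpm in *slh1Δ dom34Δ ski2Δ*, and 0.413 and 0.660 rpm in *dom34Δ ski2Δ*, with 4.51 and 2.15 rpm in *slh1Δ ski2Δ* and no read in *ski2Δ*, which allows up to 0.218 rpm. They came to 6.34 rpm in the 1 library of *cue2Δ slh1Δ dom34Δ ski2Δ*, where 1 read is 0.792 rpm, and 0.649 and 0.293 rpm in *cue2Δ dom34Δ ski2Δ*. All 7 libraries without Slh1 were above all 7 with it, whether Dom34, Cue2 or Hel2 was present or not. This split was seen in the values and was not tested. Position 1148 alone held 6.29 and 2.21 rpm in *hel2Δ slh1Δ dom34Δ ski2Δ* and 0.0738 and 0.111 rpm, 1 read each, in *hel2Δ dom34Δ ski2Δ*.

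Ends near the stop codon were more frequent in the libraries without Dom34. The 30 nt up to the end of the stop codon held 3.46 to 12.3 rpm in the 11 libraries of *dom34Δ* strains, and 0.470, 0.322 and 0 rpm in the *slh1Δ ski2Δ* and *ski2Δ* libraries. This split, too, was not tested, and the side with Dom34 is 3 libraries. In the *dom34Δ* libraries these 30 nt were 1.10 to 8.93 times as dense in 16 nt ends as the rest of the stretch (median 5.62), and held 8.46 to 42.9% of them. The lowest values were those of the shallow *hel2Δ slh1Δ dom34Δ ski2Δ* library. These ends came to 8.64 and 7.67 rpm in *hel2Δ dom34Δ ski2Δ*, where read-through was 43.5 and 36.2%, and to 8.18 and 6.49 rpm in *dom34Δ ski2Δ*, where it was 5.08 and 4.27%.

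At single positions, nt 1528, 3 nt before the stop codon, held 0.960 and 1.0 rpm in *hel2Δ dom34Δ ski2Δ*, and in *cue2Δ dom34Δ ski2Δ* it had 2.53 and 1.90 rpm. It held 1.5 and 1.55 rpm in *slh1Δ dom34Δ ski2Δ*, against 2.15 and 1.21 rpm in *dom34Δ ski2Δ*, and in *hel2Δ slh1Δ dom34Δ ski2Δ* 0.315 and 1.19 rpm. The *cue2Δ dom34Δ ski2Δ* values lay above those of *slh1Δ dom34Δ ski2Δ* and *hel2Δ dom34Δ ski2Δ*, with no test made. Position 1532, the second nt of the stop codon, held 1.85 and 2.22 rpm in *hel2Δ dom34Δ ski2Δ*, and in *cue2Δ dom34Δ ski2Δ* it had 1.43 and 0.878 rpm. It held 2.93 and 0.928 rpm in *slh1Δ dom34Δ ski2Δ*, against 1.57 and 1.65 rpm in *dom34Δ ski2Δ*. In *hel2Δ slh1Δ dom34Δ ski2Δ* it held 0 and 0.681 rpm. Position 1504, 27 nt before the stop codon, held 0.222 to 3.09 rpm in the 11 libraries without Dom34, most in *slh1Δ dom34Δ ski2Δ* (3.09 and 1.03 rpm). These 3 positions had no read in the *slh1Δ ski2Δ* libraries, which allows up to 0.282 and 0.322 rpm, nor in *ski2Δ*. Among the libraries without Dom34, the shallow *cue2Δ slh1Δ dom34Δ ski2Δ* library had 2 reads at nt 1504 and none at nt 1528 and 1532, where 3 reads would be 2.38 rpm.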

How the data were processed

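Ribosome profiling of yeast monosomes gave 15 libraries of 8 strains. The authors trimmed reads with skewer, mapped them with STAR to R64 with the reporter, keeping reads of a single place, and deposited RPM per nt of the reporter, each library normalised on its own, in the classes of 15 to 17, 20 to 22 and 27 to 32 nt; 16 nt RPFs were placed by the 3′ end and the others by the A site. CASAVA 1.8 is named in the submitters' processing notes. All deposited RPM values were whole multiples of 1 read within 0.1 reads (100%), which gave depth and reads. Of the 57 value columns 13 were not used.

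Computed here (python 3.11.15, numpy 2.4.6, R 4.3.3) were sums over positions, Wilson 95% intervals, exact stratified permutation tests with Benjamini-Hochberg adjustment over 10 tests, exact sign-flip tests over libraries, and limma 3.58.1 over 24 nt windows (0.1 rpm added, mean of at least 0.5 rpm, adjusted p under 0.05), with edgeR 4.0.16 on the recovered reads as an alternative. The scripts were tested on simulated data. Named were the 5 codons and the 5 16 nt positions of the highest mean over strains, the stop codons of the 3 frames and the window of largest called difference. Members and lists were chosen with earlier results of these data known. The tests around the TAA of the +1 frame, the interaction terms and the *DOM34* test of 16 nt RPFs were added after the values were seen. Libraries of a strain differed beyond sampling noise (chi-square over degrees of freedom 6.16 to 61.9).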

Additional observations from a re-analysis of the deposited data

Results flagged for a closer look

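Differences between backgrounds stood out in 2 cases, each tested as an interaction term in the limma fit over 24 nt windows. The log2 rise with loss of *SLH1* differed by -2.86 (median over the 17 windows of the region) between *hel2Δ dom34Δ ski2Δ* and *dom34Δ ski2Δ*. All 17 windows were called, where 46.9% of all windows tested were called. The rise differed by -1.79 between *dom34Δ ski2Δ* and *ski2Δ*, and by -0.99 with 1 rpm in place of 0.1 rpm added. The second of these backgrounds is 1 library, so this difference depends on the value added to its few reads.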

How the results depend on the processing

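Of 374 alternatives of the tested results, 329 kept the direction and the side of the threshold (counts within 1.5 times), and 45 did not. The cause was not tested where a value changed. Replicate numbers were not taken to pair the samples: deviations of same-numbered libraries correlated at -0.116 to 0.765 over 8 pairs of strains, above 0.1 in 2 of them. With the replicate block (deposited set), the difference for loss of *SLH1* was 2.10 in read-through (exact permutation, p = 0.0625, adjusted p = 0.156) and 1.51 in 16 nt RPFs (exact permutation, p = 0.0312, adjusted p = 0.139), both no longer past the threshold, and that for loss of *CUE2* in 16 nt RPFs was 0.063. The block changed no call of the other permutation tests between strains. It left the window counts as they were, except for the difference between the *dom34Δ ski2Δ* and *ski2Δ* backgrounds. That count rests on the single *ski2Δ* library and rose, but stayed within 1.5 times. Use of the block on frame, stop codon and 16 nt values was added after the data were seen. Leaving out 1 library at a time gave 1.74 to 2.45 for that difference (11 of 15 no longer past the threshold), 0.52 to 2.30 for 16 nt RPFs with loss of *SLH1* (11 of 14) and -0.085 to 0.33 with loss of *CUE2*, where the single *cue2Δ slh1Δ dom34Δ ski2Δ* library decides the sign. It gave -1.33 to 2.58 points for the position 2 share with loss of *SLH1*, -0.073 to 0.23 for the stop codon with loss of *SLH1* and -0.19 to 0.41 with loss of *HEL2*, and 0 to 1 windows for *hel2Δ slh1Δ dom34Δ ski2Δ* against *slh1Δ dom34Δ ski2Δ*.

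The position 2 share with loss of *SLH1* was -1.65 points with 21 nt RPFs only and -1.20 points without an upstream comparison. The stop codon gave -0.033 for *SLH1* and -0.012 for *HEL2* over the later codons of *HIS3* (nt 1339 to 1530), and 2.12 for *SLH1* without a denominator (exact permutation, adjusted p = 0.0309). The 16 nt RPFs with loss of *SLH1* gave -0.47 over the 21 and 28 nt RPFs of the region and 1.91 over those upstream (exact permutation, adjusted p = 0.0617). With 21 nt RPFs only, the position 3 difference around the TAA was -5.85 points. Past the stop codon, leaving out the first 3 nt gave 0.117% of reads. Without a denominator, 1 window of the region was called for *hel2Δ slh1Δ dom34Δ ski2Δ* against *hel2Δ dom34Δ ski2Δ* and 15 against *slh1Δ dom34Δ ski2Δ*, where edgeR called 1. The share over all windows without a denominator was not counted. With 1 rpm added, 1 window was called for the difference between *dom34Δ ski2Δ* and *ski2Δ* backgrounds. The *ski2Δ* group is 1 library, and its 199 reads after the tract limit each comparison that uses it.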
